A study of Mus musculus with 8 samples.

Results

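Hoxa5, Hoxa7, Hoxa9, Hoxa10, Meis1, Pbx3, Bmi1 and Dot1l were followed in PICALM-rescued and Picalm-knockout hematopoietic cells, as a gene program tied to leukemias with the CALM-AF10 fusion, among others. Members were all probe sets whose one gene symbol in the array's annotation was one of these 8 names. This gave 9 probe sets for 7 genes, of 22626 probe sets and 12393 genes in all, with 2 probe sets each for Hoxa9 and Bmi1. No probe set carried the symbol Dot1l, so Dot1l was not analysed here. None of the samples held CALM-AF10: all 8 held MLL-ENL, a different fusion oncogene, so the context of these data is PICALM itself in MLL-ENL cells.

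The 8 Affymetrix arrays came from 4 cell lines, PICALM6A, PICALM6B, PICALM6D and PICALM84, called 6A, 6B, 6D and 84 from here on. Each line was measured once as PICALM-rescued cells, transduced with human PICALM cDNA in the MSCVneo retrovirus, and once as Picalm-knockout cells, transduced with the empty MSCVneo vector, and both were selected in G418. All cells derived from the liver of embryonic day 14 fit1 Picalm fit1-5R embryos (background strain B6(Cg)-TyrC-2J/J), whose mutation leaves a non-functional protein. In both groups the fetal liver cells had been immortalized with MLL-ENL in the MSCV-IRES-eGFP vector by serial replating, and they grew in interleukin-3 at 5 ng/ml and stem cell factor at 50 ng/ml. The rescue used a human cDNA under a retroviral promoter, and its level may lie above that of normal cells. No probe set was named Picalm, so its own level gave no check of the labels, and the level of MLL-ENL was not analysed here.

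Hox proteins are homeodomain transcription factors that keep hematopoietic progenitors in an immature, self-renewing state, and the genes at the 5′ side of the Hoxa cluster are switched off as myeloid cells mature. Meis1 and Pbx3 are TALE homeodomain cofactors that bind DNA together with Hoxa9. Fusions of MLL, and CALM-AF10, keep Hoxa genes active through the histone methyltransferase Dot1l, and Bmi1, a subunit of Polycomb repressive complex 1, sustains self-renewal by silencing the Ink4a/Arf locus. CALM-AF10 cells are known for high Hoxa5, Hoxa9, Hoxa10 and Bmi1.

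The stretches upstream of Hoxa9 and of Bmi1 are shown because these genes stood for the 2 patterns in the data, a level that differed between lines and a level that was lower in the rescued cells of every line without passing the limma test. Each run holds the 250 bases just before the RefSeq start of the gene, 5′ to 3′ on the gene's own strand, in the mouse build GRCm38.p6. Capitals mark every match to CACGTG, an E-box, or to GGGCGG, a GC box, on either strand.

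Hoxa9, chr6:52227371-52227620, minus strand: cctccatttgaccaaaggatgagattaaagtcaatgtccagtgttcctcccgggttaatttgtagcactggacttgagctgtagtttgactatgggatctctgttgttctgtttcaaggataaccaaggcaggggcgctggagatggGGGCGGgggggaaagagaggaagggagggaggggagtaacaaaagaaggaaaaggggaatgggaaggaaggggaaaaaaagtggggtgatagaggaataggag
Bmi1, chr2:18676768-18677017, plus strand: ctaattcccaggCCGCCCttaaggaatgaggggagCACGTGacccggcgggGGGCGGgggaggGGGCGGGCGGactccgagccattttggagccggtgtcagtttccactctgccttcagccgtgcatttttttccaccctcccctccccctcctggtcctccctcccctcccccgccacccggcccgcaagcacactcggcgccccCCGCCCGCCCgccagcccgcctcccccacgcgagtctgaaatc

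In the Bmi1 stretch 1 E-box began 215 bases before the start, and 6 GC boxes were found, some of them overlapping. The Hoxa9 stretch had 1 GC box, 103 bases before the start, and no E-box. Of 32851 promoter windows of the same length, 6.02% held CACGTG and 32.7% held GGGCGG. Sites read by Hox-Pbx pairs (TGATTNAT) and by Meis (TGACAG), searched on both strands, had no match in these windows of the 7 members that the promoter table lists (Hoxa5, Hoxa7, Hoxa9, Hoxa10, Meis1, Bmi1 and Dot1l), while 2.82% and 15.9% of all windows held one. These matches describe letters only.

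None of the 4 Hoxa genes passed the test between PICALM-rescued and Picalm-knockout cells, while all 4 differed between the lines and were lowest in line 84. Levels are RMA values on the log2 scale, where a difference of 1 is a factor of 2, and the level of one probe set cannot be set against that of another. The groups were compared in limma with the line as a block, two-sided, with p-values adjusted over all probe sets and called at an adjusted p of 12.3%, the threshold of the study's methods. The lines were compared in the same fit by a moderated F test.

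Hoxa9, the dominant Hox factor of MLL-rearranged myeloid leukemia, was measured by a bright probe set and a dimmer one. The bright one read 13.32, 13.29, 13.27 and 12.75 in the PICALM-rescued cells of lines 6A, 6B, 6D and 84, against 13.18, 13.26, 13.32 and 12.69 in the Picalm-knockout cells of these lines. Both arrays of line 84 lay below the other 6, and within a line the groups differed by at most 0.14. The rescued minus knockout difference was 0.04 (SE 0.05, 95% confidence interval -0.08 to 0.17, limma adjusted p 0.726), whereas the lines differed (limma adjusted p 0.0161). The dimmer probe set read 11.17, 11.13, 11.12 and 10.57 in rescued cells, against 10.93, 11.19, 11.14 and 10.39 in knockout cells. It had the same shape, with a group difference of 0.09 (SE 0.07, limma adjusted p 0.614) and a line difference at an adjusted p of 0.0245. Over the 8 arrays the 2 probe sets of Hoxa9 correlated at r = 0.984, both being low in line 84.

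Hoxa10, which like Hoxa9 blocks myeloid maturation when overexpressed, showed the widest gap between lines of the Hoxa genes. It read 8.88, 8.90, 8.51 and 7.60 in rescued cells of lines 6A, 6B, 6D and 84, against 8.87, 8.89, 8.57 and 7.44 in knockout cells. The order was 6B, 6A, 6D and 84. Lines 6B and 6A were nearly equal, with means of 8.89 and 8.87, line 6D followed at 8.54 and line 84 at 7.52. The lines differed at a limma adjusted p of 0.00156 and the groups did not pass (0.03, SE 0.05, adjusted p 0.808).

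Hoxa7, which cooperates with Hoxa9 downstream of MLL fusions, read 10.24, 10.36, 10.48 and 9.81 in rescued cells, against 10.31, 10.41, 10.54 and 9.77 in knockout cells. Line 6D was highest and line 84 lowest, with no overlap to the remaining lines on either side. The lines differed (limma adjusted p 0.00807), and the group difference was -0.03 (SE 0.04, adjusted p 0.765). Hoxa5, a member of the same cluster with roles in lineage choice, read 8.92, 9.08, 9.01 and 8.25 in rescued cells, against 8.62, 9.16, 9.08 and 8.48 in knockout cells. Its lines also differed (limma adjusted p 0.0450), with line 84 lowest and lines 6B and 6D not separable. Its group difference was -0.02, with an interval of -0.24 to 0.20 that was wider than that of Hoxa7, and it pointed up in line 6A (0.29) and down in line 84 (-0.23).

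**Figure D1:**
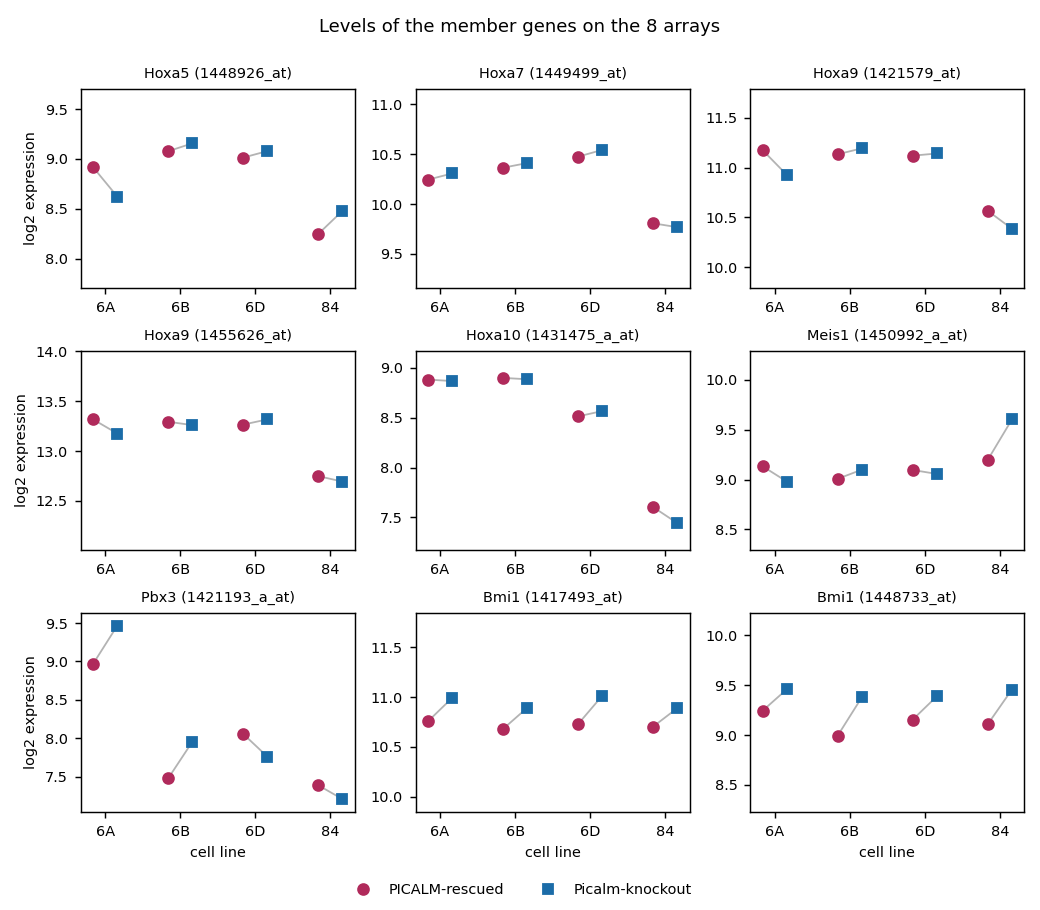
Log2 expression of the 9 member probe sets on the 8 arrays, 1 panel per probe set with an axis of its own, by cell line on the horizontal axis; circles are PICALM-rescued cells, squares are Picalm-knockout cells, and a line joins the 2 arrays of a cell line. The Hoxa panels drop in line 84, the Meis1 panel is highest there, and in both Bmi1 panels every circle lies below its square.

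Meis1, the partner that speeds leukemia driven by Hoxa9, stood opposite to the Hoxa genes in line 84 only, being highest there. Lines 6A, 6B and 6D were nearly level, with means of 9.06, 9.05 and 9.08. It read 9.13, 9.01, 9.10 and 9.20 in rescued cells, against 8.98, 9.10, 9.06 and 9.60 in knockout cells. Both arrays of line 84 lay above the other 6, and the knockout array of line 84 was the highest of all. The lines did not pass the test (limma adjusted p 0.276), nor did the groups (-0.08, SE 0.10, adjusted p 0.765). The difference of -0.40 in line 84 stood against 0.15, -0.09 and 0.04 in lines 6A, 6B and 6D, and without line 84 the mean difference was 0.03.

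Pbx3, the Pbx family member most tied to Hoxa9 in leukemia, had the widest spread of line means among the members, 7.30 to 9.22. It read 8.97, 7.48, 8.05 and 7.39 in rescued cells, against 9.47, 7.95, 7.76 and 7.21 in knockout cells. Line 6A was highest and line 84 lowest, both clear of the rest, while lines 6B and 6D overlapped. The lines differed (limma adjusted p 0.0194). Between groups the 4 lines split, with differences of -0.49 and -0.47 in lines 6A and 6B and of 0.29 and 0.18 in lines 6D and 84, so that the mean of -0.12 (SE 0.16, adjusted p 0.766) describes none of them.

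Bmi1 was the one member whose level was lower with PICALM in every line, on both of its probe sets, and it did not pass the limma threshold. The brighter one read 10.76, 10.68, 10.73 and 10.70 in PICALM-rescued cells of lines 6A, 6B, 6D and 84, against 10.99, 10.89, 11.01 and 10.89 in Picalm-knockout cells. The second read 9.24, 8.996, 9.16 and 9.11 in rescued cells, against 9.46, 9.38, 9.39 and 9.46 in knockout cells. In both, all 4 rescued arrays lay below all 4 knockout arrays.

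The means of the brighter Bmi1 probe set were 10.72 ± 0.03 in rescued and 10.95 ± 0.06 in knockout cells (SD, n = 4 each), a log2 difference of -0.23 (SE 0.04, 95% confidence interval -0.33 to -0.12), or 1.17-fold lower with PICALM. Those of the second were 9.13 ± 0.10 and 9.42 ± 0.04 (SD, n = 4 each), a difference of -0.29 (SE 0.05, interval -0.42 to -0.17), or 1.23-fold lower. The adjusted limma p was 0.257 for the first and 0.237 for the second. SAM, the statistic that the study's methods name, called both as lower at the same threshold with the lines paired (2.08% of all probe sets were called lower so) and without pairing (0.172%). Both adjusted p-values became 0.969 in limma without the line as a block. The unadjusted ones changed little, from 0.00201 and 0.00127 with the block to 0.00155 and 0.00134 without it. The rise therefore lies in the adjustment over all probe sets. Line 84 did not stand apart for Bmi1, and the lines did not pass the test (limma adjusted p 0.565 and 0.437). Leaving out 1 line at a time kept the difference between -0.24 and -0.21 for the first probe set and between -0.32 and -0.26 for the second. Fewer cells that express Bmi1 and less Bmi1 RNA per cell cannot be told apart in bulk RNA.

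**Figure D2:**
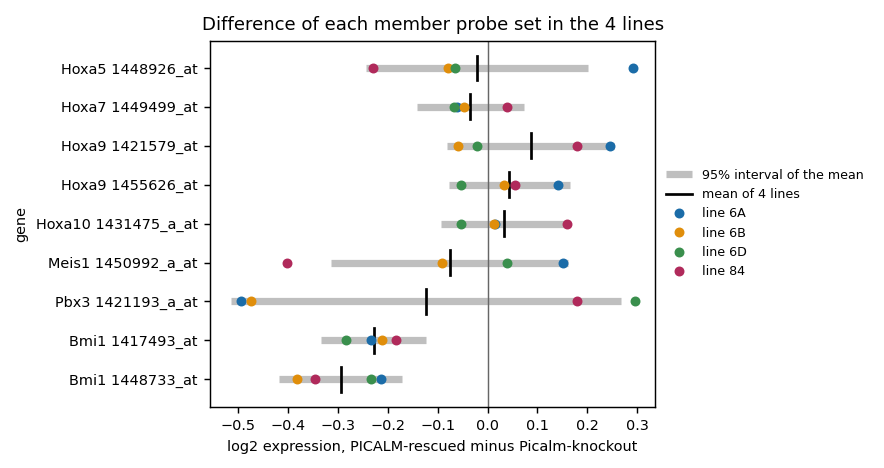
Log2 difference, PICALM-rescued minus Picalm-knockout, of each member probe set in each line (points), with the mean of the 4 lines (black tick) and its 95% confidence interval from limma (grey bar). The 2 Bmi1 bars lie wholly below 0, at means of -0.23 and -0.29, and all other bars cross 0.

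Counted over the 9 member probe sets, 0 were called higher and 0 lower in limma with the line as a block, against a background of 0.00442% of all probe sets called higher and 0.0751% called lower. At an unadjusted limma p under 0.05 there were 0 higher (background 6.17%) and 2 lower (6.32%), both of Bmi1. None was higher in all 4 lines (background 12.0%), 2 were lower in all 4 (11.8%), and 7 were mixed. The groups did not overlap, with rescued cells lower, for the same 2 probe sets (1.57%). These 2 measure 1 gene and correlated at r = 0.906 over the 8 arrays, so they are no independent pair. The median difference of the 9 was -0.03, beside 0.00 over all probe sets.

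Between lines, the F test called 6 of 9 member probe sets, against 23.0% of all probe sets. These are 5 genes, of which 4 are Hoxa genes that lie in 1 cluster. Both arrays of line 84 lay below the other 6 for 6 member probe sets (background 17.5%) and above them for 1, Meis1 (21.7%). Both arrays of line 6A lay above the other 6 for 1, Pbx3 (3.43%). Without line 84, the F test called 0 of 9, and only 183 of all 22626 probe sets. At an unadjusted limma p under 0.05 there were 4, those of Hoxa5, Hoxa7, Hoxa10 and Pbx3. The share of all probe sets at that level without line 84 was not computed. Pbx3 was not called without line 6A either (limma adjusted p 0.235).

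Over the 8 arrays, 2 from each line, the brightest probe sets of Hoxa5, Hoxa7, Hoxa9 and Hoxa10 correlated with each other at r = 0.783 to 0.948, Meis1 with these 4 at -0.823 to -0.523, and Bmi1 with the other 6 members at 0.004 to 0.303. The genes most like Hoxa9 by Pearson's r over the 8 arrays were Dtnbp1 (0.999), Tacc2 (0.995) and Greb1 (0.993), and those most like Meis1 were Trim6 (0.987), Eci1 (0.984) and Daxx (0.983). Tacc2, for example, read 8.56, 8.69, 8.59 and 6.99 in rescued cells, against 8.34, 8.60, 8.64 and 6.77 in knockout cells. All these correlations include the 2 arrays of line 84, which lay apart for each of the Hoxa genes and Meis1.

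The other measured genes of the Hoxa cluster, on chromosome 6, were dim in these cells. All 5 of them lay among the dimmest 40% of probe sets, between 4.38 and 6.59, a range in which an array can hardly tell expression from background. None of the 9 member probe sets lay in that part. Hoxa13 read 5.65, 5.81, 5.61 and 5.60 in rescued cells, against 5.58, 5.56, 5.61 and 5.36 in knockout cells, with Hoxa2, Hoxa11 and Hoxa4 at differences of -0.07, 0.06 and 0.01. Limma called 0 of the 5 (0 at an unadjusted p under 0.05, and 0 by SAM). Of 28 listed Hoxb, Hoxc and Hoxd genes 22 were measured, 19 of them among the dimmest 40%. Limma and SAM called 0, and 1 was higher at an unadjusted limma p under 0.05 (6.83% over all genes). That one was Hoxb9, with a difference of 0.12 (SE 0.05, limma adjusted p 0.396), followed by Hoxd12 (0.12), Hoxb3 (0.13) and Hoxd13 (0.16).

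Among 8 measured TALE cofactors other than Meis1 and Pbx3, 0 were called by limma or SAM. In all 4 lines 0 were higher and 3 lower, beside 13.4% and 12% over all genes. At an unadjusted limma p under 0.05 there were 0 higher and 2 lower, beside 6.83% and 6.24% over all genes. Tgif1, a TALE repressor of TGF-beta signaling, read 7.71, 8.03, 7.98 and 8.72 in rescued cells, against 8.18, 8.17, 8.15 and 9.54 in knockout cells (difference -0.40, SE 0.12, limma adjusted p 0.342). Tgif2, its close relative, differed by -0.37 (SE 0.15), mostly through line 84. Pknox1, a partner of Pbx proteins, differed by -0.12 and Pbx2 by -0.07. As with Meis1, the knockout array of line 84 held the highest value of Tgif1 and of Tgif2.

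The partners of MLL fusions and of Dot1l gave no shared direction. Of 16 measured genes limma called 0. In all 4 lines 3 were higher and 2 lower, beside 13.4% and 12% over all genes. At an unadjusted limma p under 0.05, 2 were higher and 0 lower, beside 6.83% and 6.24%. The median difference was -0.00, beside 0.01 over all genes. Kmt2a, which encodes MLL, read 8.44, 8.55, 8.49 and 8.85 in rescued cells, against 8.23, 8.34, 8.36 and 8.55 in knockout cells (0.21, SE 0.05, limma adjusted p 0.310). Paired SAM called this brightest probe set as higher (0.539% of all probe sets were). The other Kmt2a probe set differed by 0.06 (SE 0.05, limma adjusted p 0.664) and was lower in line 6A (-0.05). Aff1, the AF4 subunit of the elongation complex that MLL fusions recruit, differed by 0.24 (SE 0.06), its relative Aff4 by 0.12, and Psip1, which tethers MLL to chromatin, by -0.12. Mllt10 encodes AF10, the partner of CALM in the fusion and a cofactor of Dot1l, and is named for that reason, after its values were seen. It read 10.35, 10.37, 10.35 and 9.97 in rescued cells, against 10.38, 10.38, 10.36 and 10.29 in knockout cells. By this brightest probe set, the difference of -0.09 (SE 0.07, limma adjusted p 0.596) came almost wholly from line 84. The other Mllt10 probe set differed by -0.08 (SE 0.06, limma adjusted p 0.641), at -0.15, -0.16, 0.13 and -0.12 in lines 6A, 6B, 6D and 84.

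The other subunits of Polycomb repressive complex 1, in which Bmi1 acts, leaned to lower values with PICALM without passing the test. Of 11 measured genes 0 were called by limma or SAM, 0 were higher and 4 lower in all 4 lines, beside 13.4% and 12.0% over all genes. At an unadjusted limma p under 0.05 there were 0 higher and 5 lower, beside 6.83% and 6.24% over all genes, and the median difference was -0.06. Phc1, a polyhomeotic subunit, read 6.71, 6.50, 6.32 and 7.74 in rescued cells, against 6.82, 6.76, 6.47 and 8.14 in knockout cells (-0.23, SE 0.06, limma adjusted p 0.328).

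Cbx2, which reads the methylated histone mark laid down by complex 2, differed by -0.26 (SE 0.07), Cbx6 by -0.43 (SE 0.14) and Pcgf6, an alternative to Bmi1 in the complex, by -0.17 (SE 0.05). The other Cbx2 probe set differed by -0.0011 (limma adjusted p 0.997), at 0.08, -0.09, 0.27 and -0.26 in lines 6A, 6B, 6D and 84. Unlike Bmi1, the 4 subunits Phc1, Cbx2, Pcgf6 and Cbx6 were, by their brightest probe sets, higher in both arrays of line 84 than in all other arrays. By the same probe sets the lines differed for each, in that order (limma adjusted p 0.00220, 0.00744, 0.00356 and 0.0841). Phc2, the fifth, read 9.28, 9.29, 9.26 and 9.32 in rescued cells, against 9.46, 9.38, 9.35 and 9.63 in knockout cells. By the brightest probe sets it was the one gene of the list whose groups did not overlap (1.57% of all probe sets were lower so). The other Phc2 probe set differed by -0.15 (limma adjusted p 0.490), its groups overlapped, and it was higher with PICALM in line 6D (0.10).

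Polycomb repressive complex 2, which lays down that mark, had 10 measured genes, 0 of them called by limma or SAM. In all 4 lines 0 were higher and 4 lower, beside 13.4% and 12% over all genes. At an unadjusted limma p under 0.05 there was 1 in each direction, beside 6.83% higher and 6.24% lower over all genes. Ezh2, its catalytic subunit, read 11.71, 11.77, 11.81 and 12.11 in rescued cells, against 11.87, 11.93, 11.89 and 12.15 in knockout cells (-0.11, SE 0.04, limma adjusted p 0.399). Jarid2, which recruits the complex, differed by 0.14, Eed by -0.10 and Rbbp7 by -0.07.

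**Figure D3:**
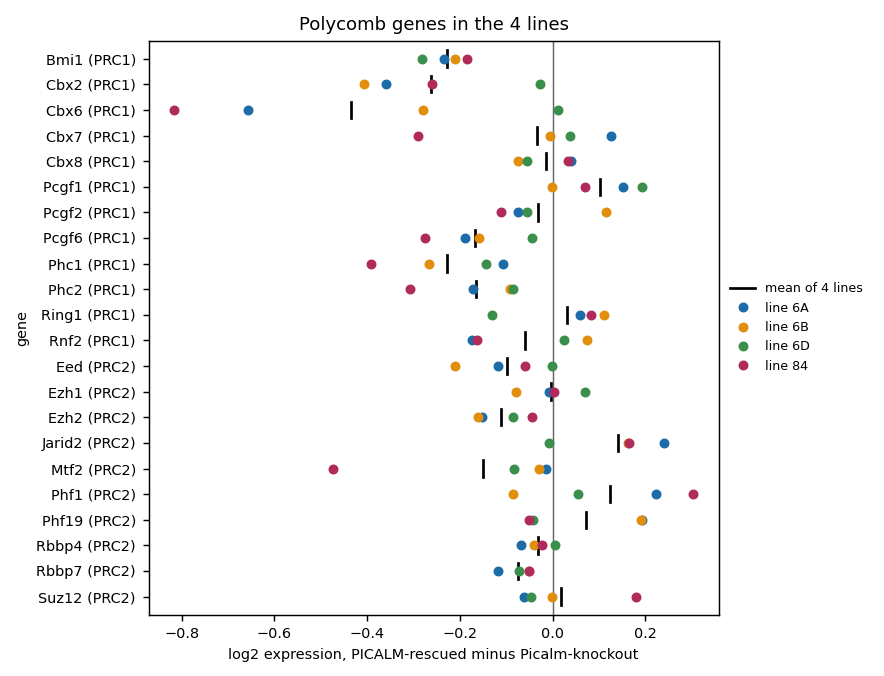
Log2 difference, PICALM-rescued minus Picalm-knockout, of Bmi1 and the other measured genes of Polycomb repressive complexes 1 (PRC1) and 2 (PRC2), by the brightest probe set of each gene, in each line (points) with the mean of the 4 lines (black tick). Bmi1, Cbx2, Pcgf6, Phc1 and Phc2 of PRC1 and Ezh2, Eed, Rbbp7 and Mtf2 of PRC2 have all 4 points below 0, while Ring1, Pcgf1, Jarid2, Phf1, Phf19 and Suz12 have means above 0.

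Cdkn2a and Cdkn2b, the Ink4a/Arf and Ink4b genes that Bmi1 silences, were dim and did not follow the group difference of Bmi1. Cdkn2a read 5.05, 4.67, 5.11 and 6.60 in rescued cells, against 5.14, 4.93, 4.99 and 6.05 in knockout cells, and both of its highest values were those of line 84 (limma adjusted p of the lines 0.0210). Its group difference was 0.08 (SE 0.13, limma adjusted p 0.828) and that of Cdkn2b was -0.01 (SE 0.09). Limma and SAM called 0 of the 2, with 0 at an unadjusted limma p under 0.05, and both genes lay among the dimmest 40%.

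Of 19 measured genes known to be bound or activated by Hoxa9 and Meis1, limma called 0 by the brightest probe set. In every line 3 were higher and 5 lower, beside 13.4% and 12% over all genes. At an unadjusted limma p under 0.05, 3 were higher and 7 lower, beside 6.83% and 6.24%. The median difference was -0.11, beside 0.01 over all genes. Paired SAM called 4 as lower, Sox4, Ccl3, Cd34 and Ccnd1 (2.08% of all probe sets were), and unpaired SAM called 0. This list was written with earlier results of these arrays known. Its counts, here and between lines, therefore cannot be set against a chance rate.

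Sox4, a transcription factor of progenitor cells, read 9.17, 9.57, 9.45 and 11.56 in rescued cells, against 11.06, 10.93, 10.60 and 12.46 in knockout cells by its brightest probe set. It was 2.50-fold lower with PICALM (-1.32, SE 0.16, limma adjusted p 0.150). Of its 6 probe sets, 5 had lower rescued values in every line, and limma called 2 others than the brightest, at 2.10-fold and 2.36-fold lower (limma adjusted p 0.0305 for both). The 2.36-fold lower one differed by -1.47, -1.21, -1.05 and -1.24 in lines 6A, 6B, 6D and 84. With line 6A, 6B or 6D left out limma called 0 of all probe sets, these 2 included.

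Cd34, a surface protein of stem and progenitor cells, read 8.93, 9.38, 9.64 and 11.09 in rescued cells, against 10.85, 11.01, 10.15 and 12.03 in knockout cells (-1.25, SE 0.24, limma adjusted p 0.261). Ccl3, a chemokine, differed by -0.78 (SE 0.12) and Ccnd1, a D-type cyclin, by -0.71 (SE 0.15), both lower in all 4 lines. Both arrays of line 84 lay above the other 6, as for Meis1, for 11 of the 19 (23.9% over all genes) and below them, as for the Hoxa genes, for 4. The F test between lines called 16 of the 19 (24.7% over all genes). Ccnd1, for instance, read 8.12, 7.83, 7.94 and 9.68 in rescued cells, against 8.48, 8.76, 8.31 and 10.86 in knockout cells.

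**Figure D4:**
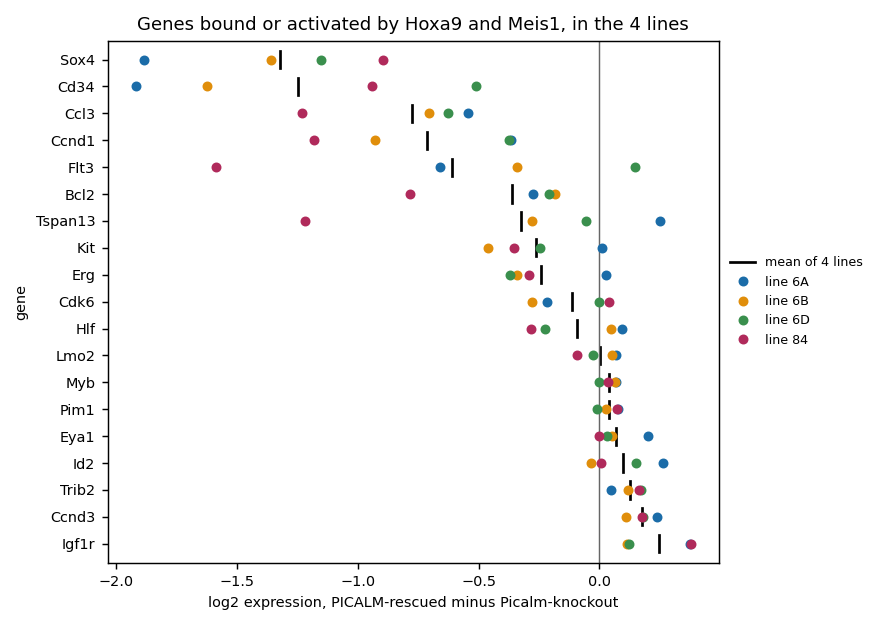
Log2 difference, PICALM-rescued minus Picalm-knockout, of the 19 measured genes bound or activated by Hoxa9 and Meis1, in each line (points) with the mean of the 4 lines (black tick). Sox4, Cd34, Ccl3, Ccnd1 and Bcl2 have all 4 points below 0, and Igf1r, Ccnd3 and Trib2 have all 4 above 0.

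Markers of other cell types were read beside these values, and limma called 0 genes of any marker list by the brightest probe set. All 8 hematopoietic markers were bright (8.82 to 13.36 over genes and arrays), and 5 of them were higher and 0 lower in all 4 lines. Of 5 hepatocyte genes 1 was higher and 1 lower in all 4 lines. Alb lay at 5.86 to 6.04, while Afp, made by fetal liver, read 7.53, 7.13, 6.03 and 7.24 in rescued cells, against 8.56, 8.46, 7.97 and 7.97 in knockout cells (limma adjusted p 0.208), and both SAM runs called it as lower. Of the red cell genes Hba-a1 lay at 4.90 to 4.97, while Klf1 reached 8.33 in the rescued and 7.17 in the knockout cells of line 84, above its values in the other lines. Of 11 genes of neutrophil granules 8 were higher and 0 lower in all 4 lines, with list means of 9.86 to 11.34 in rescued cells, against 7.77 to 9.44 in knockout cells, and of 8 mast cell genes 5 were higher and 0 lower, with list means of 5.87 to 8.64 in rescued cells, against 5.64 to 7.11 in knockout cells. At an unadjusted limma p under 0.05, 7 neutrophil granule and 5 mast cell genes were higher, beside 6.83% over all genes. Paired SAM called 2 and 1 of them as higher, beside 0.539% of all probe sets. In all 4 lines 2 of 4 azurophil granule genes were higher and 0 lower, 2 of 9 macrophage genes higher and 1 lower, 3 of 11 lymphoid genes higher and 0 lower, and 0 of 6 erythroid genes either way. The part of these cells in the values of Bmi1, Sox4, Cd34 and the Polycomb genes was not tested.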

How the data were processed

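Total RNA of 8 samples, 4 PICALM-rescued and 4 Picalm-knockout, was hybridized to Affymetrix mouse arrays, the A version by the sample titles and the full one by the methods. RMA was run by the authors, and its log2 values were used here as deposited. RMA equalizes arrays, so their medians lay between 7.32 and 7.35, and it compresses differences of dim probe sets. Arrays hold no read depth, and their number, 4 per group, limits the precision.

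Of 22690 rows, 64 controls were left out. Among the other 22626, a single gene symbol was given for 20380, several for 691 and none for 1555. No 2 arrays held identical values.

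Group and line were fitted in limma 3.58.1 (R 4.3.3, statmod 1.5.0), p-values were adjusted by Benjamini-Hochberg over the whole array, and 12.3% was the threshold. The line entered as a block since a line's rescued and knockout cells share their origin. After removal of group means, both arrays of a line correlated (r = 0.623 to 0.811), and for 8 of 8 arrays no array of another line came closer. The sources used here do not say whether the lines came from different embryos. With the line in the fit, group p-values are judged against how the rescued minus knockout difference varied between these lines. The F test between lines used the same spread, since no culture of a line was repeated within a group. SAM was computed from its published statistic, over 16 sign changes (paired) or 70 arrangements (unpaired). With 1 array per line and group, a difference between lines in the effect of PICALM could not be tested. The scripts were tested on simulated data.

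The members and the gene lists were chosen with earlier results of these data known. Of each list up to 4 genes with the smallest limma p are named by their brightest probe set, plus any called, and so are the 3 genes most like Hoxa9 and Meis1. Naming Phc2, Mllt10 and the called Sox4 probe sets was decided later, with their values in view. The alternatives dropped the block, used SAM or the methods' t-test, normalized by quantiles, centred on the median, left out the dimmest 40%, weighted the arrays, let the variance follow a robust trend, set 0.05 as the threshold or left out each line. Promoter sequences came from a RefSeq table read with Python 3.11.15, in which 7 of 8 members matched, with no entry for Pbx3.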

Additional observations from a re-analysis of the deposited data

Results flagged for a closer look

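Each group of 4 arrays was searched for an array far from the other 3 (a gap above Dixon's 95% critical value). The search covered the members and the background genes whose values were compared, but not the cell type markers. Of 98 groups 17 held such an array, and 16 of the 17 were arrays of line 84. The groups included genes chosen for likeness to Hoxa9 or Meis1 and probe sets named with their values in view. These counts therefore cannot be set against a chance rate. Among the members these were the 2 Hoxa9 probe sets, with the rescued array of line 84 at 10.566 (the others 11.12 to 11.174) and at 12.749 (the others 13.266 to 13.317).

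Among the genes bound or activated by Hoxa9 and Meis1, the rescued array of line 84 stood high for Sox4 (11.562, the next 9.567, by its brightest probe set) and for Ccnd1 (9.684, the next 8.12). Another Sox4 probe set, one of the 2 called, was at 9.642 in the rescued (the next 7.691) and 10.878 in the knockout array of line 84 (the next 8.897). Among the Polycomb genes, Cbx2 was at 7.771 in the rescued array of line 84 (the next 6.698) and Pcgf6 at 10.262 in its knockout array (the next 9.218). Among the other cofactors the knockout array of line 84 stood high for Tgif1 (9.544, the next 8.18) and for Psip1 (9.848, the next 9.487), while Mllt10 was low in the rescued array of line 84 (9.97, the next 10.353). The one array outside line 84 was the rescued array of line 6A for Hoxa2, at 4.382 (the next 4.617), a dim probe set.

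The genes most like Hoxa9 were low in line 84, as their choice implies. Dtnbp1 was at 10.36 in the rescued array (the next 10.927), Tacc2 at 6.988 in the rescued and 6.767 in the knockout array (the next 8.562 and 8.34) and Greb1 at 4.611 in the knockout array (the next 6.657). Daxx, chosen as like Meis1, was high in the knockout array of line 84, at 10.409 (the next 9.338).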

How the results depend on the processing

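Of 126 recomputed member differences, 115 kept their direction and their side of the threshold, and 4 turned their sign. Another 7 passed the threshold of their alternative after missing that of the main fit, and 0 lost it. Dropping the block, SAM, the t-test, the variance trend and leaving out dim probe sets do not alter the difference itself. Under these alternatives the direction could not change, and only the call could. The 7 that passed were all of Bmi1, whose differences stayed between -0.24 and -0.21 and between -0.32 and -0.26. Of these, 2 came from the t-test at an unadjusted p under 0.05, a looser threshold. Both Bmi1 probe sets met that one in the main fit too (unadjusted limma p 0.0020 and 0.0013). No member probe set was called higher under any alternative. With the line as a block limma called 1 probe set higher and 17 lower, 0 and 0 of them members. Without the replicate block it called 0 and 0. Paired SAM called 122 and 470 and unpaired SAM 11 and 39, each with 2 members lower (both Bmi1). The methods' t-test gave 617 and 562 at an unadjusted p under 0.05, with the same 2 members, and 0 and 0 after adjustment. Array weights gave 25 and 92, the variance trend with robust settings 19 and 81, with 1 member lower (the brighter Bmi1 probe set, limma adjusted p 0.11), and the threshold of 0.05 gave 0 and 4. Without the dimmest 40% it was 0 and 21. Leaving out 1 line gave 0 to 8 higher and 0 to 42 lower, the highest counts being those without line 84, and 0 members.

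Between lines, 5211 probe sets and 6 of the members' were called, 3033 with array weights, 2440 at 0.05, and 183 to 4223 with 1 line left out, with 0 to 6 of the members'. The lowest counts, 183 and 0, were those without line 84. The sign turned for Hoxa5 with array weights (0.007) and over the lines left out for Hoxa5 (-0.1246 to 0.0495), Hoxa10 (-0.0082 to 0.0628) and Meis1 (-0.1512 to 0.0335), each time without line 84. The cause was not tested.

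With 4 pairs an exact sign-change test cannot go below 0.125 (2 of 16), so calls rest on spread shared across probe sets.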
